A study of Mus musculus with 54 samples.

Results

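Ctcf and 9 genes around it on mouse chromosome 8 were followed through every genotype and preparation of a study of CTCF and BORIS in the male germ line. The 10 genes were taken by symbol from 23284 genes listed in each count table. Ctcf and Rltpr were chosen by their change between libraries with 1 and with 2 Ctcf alleles, and the other 8 (Atp6v0d1, Fam65a, Acd, E130303B06Rik, 4933405L10Rik, Gfod2, Cenpt and Edc4) by their place beside Ctcf. Comparisons of 1 with 2 Ctcf alleles are therefore given as a description, without a test, and the 10 genes were tested only between groups with the same number of Ctcf alleles or between cell stages. Calls between 1 and 2 alleles are given only for other genes.

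All mice were C57BL/6 males of 3 months. WT carried 2 intact alleles of both genes, CTCF HET had lost 1 Ctcf allele (Ctcf+/-), BORIS KO had lost both Boris alleles (Boris-/-), and the compound mutant (CM) combined both changes (Ctcf+/- Boris-/-). Each library came from a germ cell preparation of 4 mice. The authors describe the whole testis preparations as independent, while the labels give only replicate numbers. For sorted cells p-values measure the spread between these samples, which may be partly technical. Whole testis here means an enzyme-dissociated, germ-cell-enriched suspension, with 3 libraries per genotype. Round spermatids (RS) and spermatocytes (SC) were obtained by elutriation and sorting, with 3 libraries per genotype and stage except 2 for WT SC. ChIP-seq peak lists for CTCF, RNA polymerase II (Pol2) and H3K4me3 were given for WT and CM whole testis, and for BORIS in WT, as 1 list per antibody and genotype. The lost Ctcf allele lies on the same chromosome as the 9 neighbours, so that loss of a Ctcf copy and an altered copy of the locus cannot be told apart in CTCF HET and CM. Which part of Ctcf the targeted allele lacks is not given in the sources used here, and a count over the whole gene may include reads from it.

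CTCF is a zinc finger protein that binds insulators and promoters and holds the bases of chromatin loops, and BORIS (gene symbol Ctcfl) is its paralog, expressed in male germ cells. Boundaries held by CTCF are known to keep enhancers away from promoters of neighbouring genes. Rltpr, now named Carmil2, is known from T lymphocytes, where it regulates actin capping protein and takes part in CD28 costimulation.

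The genes span 370444 bp on chromosome 8 (mouse genome build mm9), 5 on each strand. Atp6v0d1, a subunit of the proton pump V-ATPase, starts at −70521 bp relative to the Ctcf start, and Fam65a (Ripor1) ends 14373 bp before it. Ctcf occupies chr8:108160468-108206822 on the plus strand. Only 3351 bp lie between its end and the start of Rltpr, at chr8:108210174-108222078 on the same strand. Acd follows on the minus strand and encodes the shelterin protein TPP1. Rltpr and Acd share 21 bp at their ends, and use of strand in the counting is not stated. E130303B06Rik (Enkd1) and 4933405L10Rik, whose role is not described here, start 370 bp apart in opposite directions. Gfod2, Cenpt and Edc4 lie farther on, and encode an oxidoreductase-like protein, a protein of the inner kinetochore and an enhancer of mRNA decapping.

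CTCF peaks mark the locus, and the sequences under them are shown because they are the candidate positions of CTCF and BORIS around Rltpr. All are read from mm9 on the plus strand, 5′ to 3′, and capitals mark a match to CCNNNAGNNGGC (N, any base), the core of the known CTCF motif, searched on both strands. Matches were present in 53.7% of the 34625 WT CTCF peaks, in 53.7% of the 7652 BORIS peaks and in 8.61% of 32851 RefSeq promoters. The peak just upstream of Rltpr, in the stretch between Ctcf and Rltpr, is given over 200 bases at chr8:108209717-108209916, outside any annotated exon, and held no match.
Rltpr upstream: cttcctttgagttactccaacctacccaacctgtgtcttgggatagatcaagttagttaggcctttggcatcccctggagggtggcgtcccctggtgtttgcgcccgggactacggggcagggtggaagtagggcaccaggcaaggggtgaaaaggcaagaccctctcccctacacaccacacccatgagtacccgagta
Peaks inside Rltpr and on the other side of Ctcf did hold matches, and are given over 40 bases around each match. The matches lie in a Rltpr exon (chr8:108217925-108217964), in a Rltpr intron (chr8:108218557-108218596), just past the end of Fam65a (chr8:108146452-108146491) and at the promoter of Ctcf itself (chr8:108160641-108160680), the last of these shared by CTCF and BORIS. Relative to the summit of the CTCF peak, their centres lay at −191, −13, −8 and −34 bp in this order. The exon match is thus far from the summit of its peak.
Rltpr exon: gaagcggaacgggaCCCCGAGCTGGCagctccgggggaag
Rltpr intron: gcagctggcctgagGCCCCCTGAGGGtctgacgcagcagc
Fam65a end: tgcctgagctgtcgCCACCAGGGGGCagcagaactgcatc
Ctcf promoter: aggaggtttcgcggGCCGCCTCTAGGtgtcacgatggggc
Inside Fam65a, BORIS had a peak without an overlapping CTCF peak, with a match at chr8:108131650-108131689. A CTCF peak in the body of Atp6v0d1 held a match at chr8:108058052-108058091.
Fam65a body, BORIS: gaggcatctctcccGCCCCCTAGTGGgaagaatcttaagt
Atp6v0d1 body: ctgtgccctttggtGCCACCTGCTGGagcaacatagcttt

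The depth ran from 10437683 to 42055813 counts in whole testis libraries, from 47740650 to 98545423 in RS and from 53337530 to 88946702 in SC, so that whole testis values of low genes are the least precise. Levels are given as CPM, counts scaled to library size by TMM within each table, and the 2 tables differ in library chemistry and are not compared with each other. Round spermatid markers were higher in RS than in SC for 10 of 10 genes in every genotype, and spermatocyte markers were higher in SC for 6 of 9 genes in WT and 7 of 9 in the others. Boris RNA, counted over the whole gene, was not absent in the knockouts. In whole testis Ctcfl was at 0.51 to 0.71 CPM (WT), 0.33 to 0.81 (CTCF HET), 0.17 to 0.40 (BORIS KO) and 0.12 to 0.19 (CM). CTCF HET, with intact Boris, thus overlapped BORIS KO there. In RS Ctcfl was at 2.80 to 4.91 CPM (WT), 2.56 to 3.39 (CTCF HET), 2.06 to 2.38 (BORIS KO) and 1.07 to 2.54 (CM). In SC it was at 0.067 to 0.081 CPM (WT), 0 to 0.088 (BORIS KO), 0 to 0.40 (CM) and 0 to 1.81 (CTCF HET). It was thus too low in SC to check the Boris genotype there. The libraries labelled CM in RS and SC did not show lower Ctcf, and replicate 1 of each stood apart in Ctcf, as given next. CTCF HET SC libraries detected 12018 to 13406 genes and CM SC libraries 14145 to 16666, against 17631 to 17683 in WT SC, and CM RS libraries 14932 to 16670 against 17504 to 17985 in WT RS.

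Ctcf was lower in whole testis of both genotypes with 1 allele. Its levels were 45.1, 40.9 and 42.1 CPM in WT, 30.7, 38.8 and 34.1 in BORIS KO, 27.7, 30.4 and 23.0 in CTCF HET and 26.4, 26.9 and 24.3 in CM. The mean in CTCF HET was 63.3% of WT and that in CM 60.6%, and neither overlapped WT or BORIS KO, whereas CTCF HET and CM overlapped each other. On the log2 scale Ctcf differed from WT by −0.66 ± 0.18 (SE, n = 3 and 3) in CTCF HET and by −0.74 ± 0.21 in CM, and CM differed from BORIS KO by −0.45 ± 0.22.

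In sorted cells the order was different. In RS, Ctcf was at 48.0, 30.0 and 28.4 CPM in WT, 33.1, 21.8 and 24.5 for CTCF HET, and 26.9, 25.2 and 28.9 for BORIS KO, with overlap among these groups. The libraries labelled CM had 171, 45.5 and 38.4 CPM, and the value in replicate 1 was far above every other library. In SC, Ctcf was at 36.0 and 33.6 CPM in WT, 41.7, 49.5 and 29.9 for CTCF HET, 30.2, 32.6 and 30.4 for BORIS KO, and 89.3, 34.8 and 36.4 for CM, again with replicate 1 of CM apart. The log2 difference of CM from WT was 1.29 ± 0.54 in RS (0.34 without replicate 1) and 0.62 ± 0.43 in SC (0.033 without it), so that replicate 1 set most of it. CM differed from BORIS KO by 1.70 ± 0.58 in RS and 0.75 ± 0.35 in SC, and by 0.63 and 0.076 without replicate 1, while CTCF HET differed from WT by −0.44 ± 0.22 in RS and 0.34 ± 0.22 in SC, with overlapping groups in both.

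Rltpr was low with 2 Ctcf alleles and high with 1, in every preparation. In whole testis it was at 1.64, 1.13 and 1.60 CPM in WT and 1.80, 0.803 and 1.38 in BORIS KO, against 104, 68.2 and 68.7 in CTCF HET and 77.8, 49.4 and 41.4 in CM. In RS it was at 0.933, 1.11 and 0.582 CPM in WT and 1.96, 1.86 and 1.58 in BORIS KO, against 65.9, 77.5 and 60.5 in CTCF HET and 56.7, 28.6 and 32.4 in CM. In SC it was at 1.71 and 1.68 CPM in WT and 2.29, 2.86 and 2.94 in BORIS KO, against 63.4, 36.7 and 53.3 in CTCF HET and 75.6, 54.8 and 49.998 in CM. No library with 1 Ctcf allele came near any library with 2, which holds also for replicate 1 of CM in RS and SC, where Ctcf itself was high.

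The change of Rltpr from WT was 54.5-fold in CTCF HET whole testis (5.77 ± 0.28 on the log2 scale) and 37.9-fold in CM (5.24 ± 0.36). In RS it was 76.3-fold (6.25 ± 0.23) and 46.0-fold (5.52 ± 0.41), and in SC 32.7-fold (5.03 ± 0.29) and 35.3-fold (5.14 ± 0.27). Against BORIS KO, Rltpr in CM was higher by 5.31 ± 0.40 in whole testis, 4.48 ± 0.36 in RS and 4.44 ± 0.21 in SC, on the log2 scale. Ranked by log2 fold change from the highest, Rltpr was number 1 of 16097 genes in CTCF HET whole testis and number 1 of 15238 in CTCF HET RS. Its rank was 11 of 13648 in CTCF HET SC, and in CM against WT it was 3 of 16378 in whole testis, 4 of 15298 in RS and 34 of 14747 in SC. These ranks describe the contrast that chose Rltpr.

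**Figure D1:**
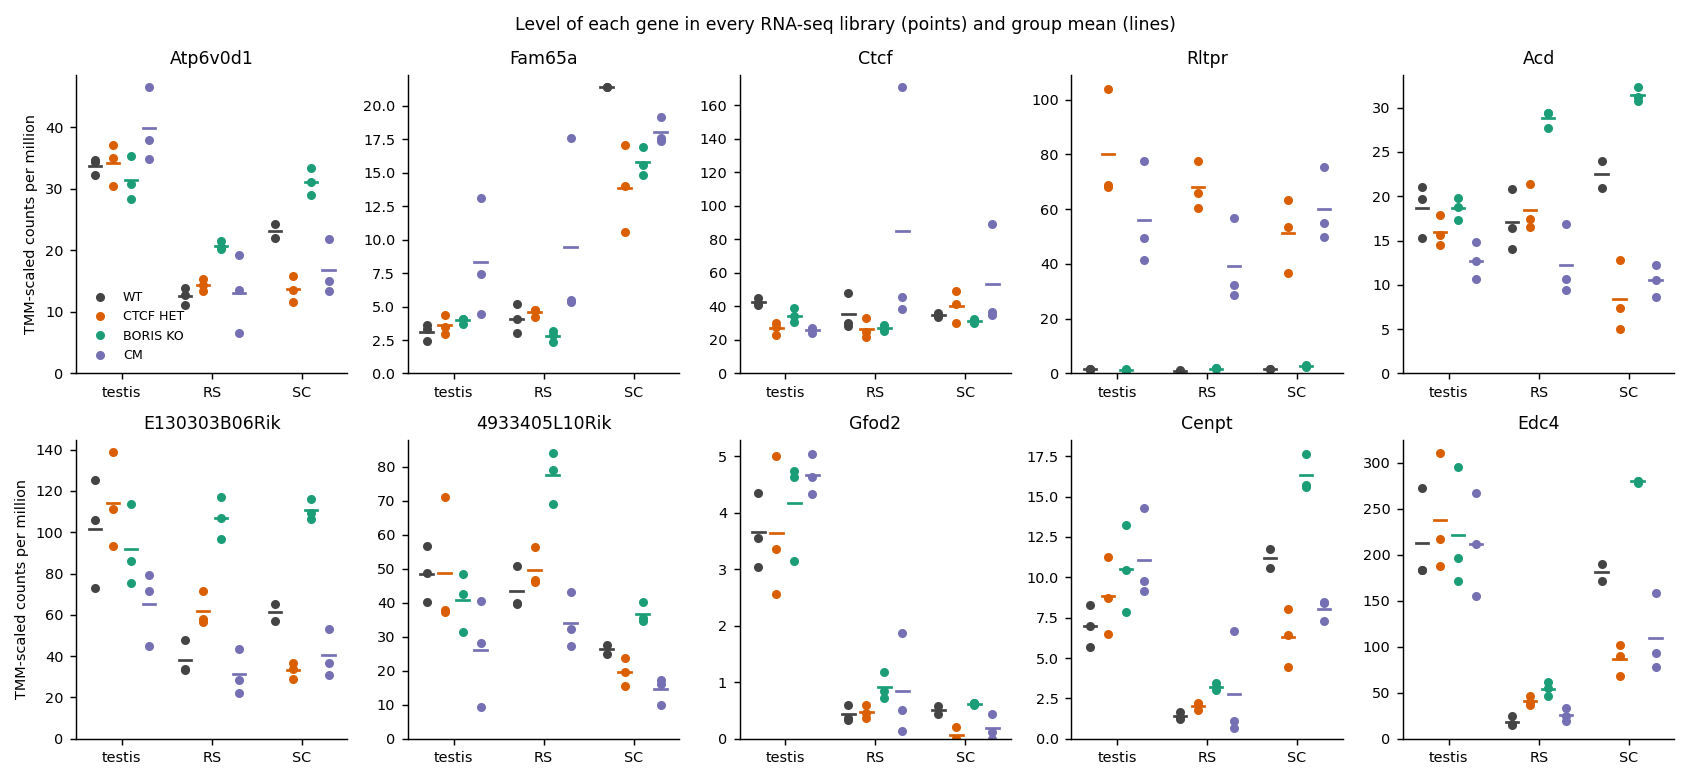
Level of each gene in TMM-scaled CPM (vertical axis from 0, its own range per gene) in every library of whole testis, round spermatids (RS) and spermatocytes (SC). Points are libraries colored by genotype and lines are group means. Rltpr lies between 28.6 and 104 CPM in all CTCF HET and CM libraries and at or under 2.94 in all WT and BORIS KO libraries.

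Per exon length, as RPKM, the rise carried Rltpr from the lower part of the genes to the upper. Rltpr stood at the 27.9th to 32.6th percentile of genes by RPKM in WT whole testis and at the 79.4th to 84.0th in CTCF HET. In RS it moved from the 38.3rd to 44.0th percentile in WT to the 82.1st to 84.3rd in CTCF HET. The RPKM of Rltpr divided by that of Ctcf in the same library was 0.024 to 0.034 for WT, 2.00 to 3.33 for CTCF HET and 1.51 to 2.61 for CM whole testis. In RS the ratio was 0.017 to 0.033 in WT, 1.77 to 3.16 in CTCF HET and 0.294 to 0.750 in CM, and in SC 0.042 to 0.044, 0.659 to 1.58 and 0.751 to 1.40. Rltpr thus passed its upstream neighbour in whole testis of both genotypes and in CTCF HET RS, whereas in CM RS it stayed under it.

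**Figure D2:**
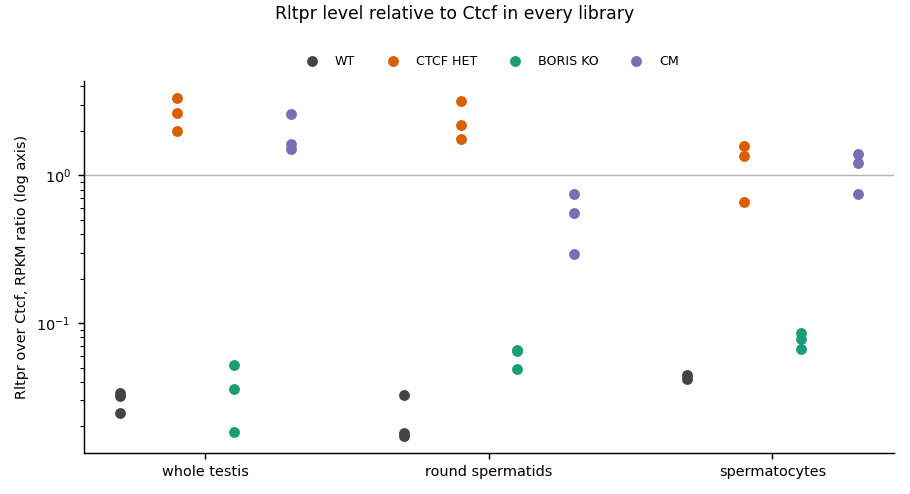
RPKM of Rltpr divided by RPKM of Ctcf (log axis) in every library, grouped by preparation and colored by genotype, with a line at equal levels. WT and BORIS KO libraries lie between 0.017 and 0.086 and libraries with 1 Ctcf allele between 0.294 and 3.33.

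Lymphocytes are the cell type in which Rltpr is known, so their markers were counted beside it. The summed level of 10 lymphocyte markers ranged over 11.1 to 13.9 CPM (WT), 12.2 to 17.9 CPM (CTCF HET), 16.5 to 19.8 CPM (BORIS KO) and 14.6 to 31.4 CPM (CM) in whole testis, and 5 of the 10 had a mean over 1 CPM in WT and in CTCF HET. In RS the sum was 4.29 to 6.45 CPM in WT and 4.18 to 4.73 in CTCF HET, where Rltpr was at 60.5 to 77.5 CPM. The part of lymphocytes in the Rltpr values was not tested. None of 6 genes of the CD28 pathway was called in CTCF HET whole testis (edgeR, 0 at an unadjusted p under 0.05 and 0 by DESeq2), and their median log2 fold change was −0.07 against 0.011 over all genes. The same held for the other lists tied to the 10 genes, with 0 called of 6 for the CARMIL family and capping protein, 6 for shelterin, 14 for the inner kinetochore, 8 for mRNA decapping and 9 for V-ATPase V0 (0 at an unadjusted p under 0.05 and 0 by DESeq2 in each). Over all genes 0.00621% were called in this comparison by edgeR at an adjusted p under 0.05, which is 1 gene of 16097, and DESeq2 called 3. In CTCF HET RS edgeR called 22.3% of all genes. Higher and lower calls there were 0 and 1 of 6 (CARMIL), 1 and 2 of 5 (CD28) and 1 and 1 of 6 (shelterin). They were 1 and 4 of 15 (inner kinetochore), 0 and 0 of 8 (decapping) and 1 and 0 of 9 (V-ATPase V0). In SC, with 15.5% called, they were 1 and 0 of 5, 0 and 0 of 5, 0 and 1 of 6, 5 and 0 of 14, 0 and 0 of 8 and 0 and 1 of 7.

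The other 8 genes showed no separation from WT in CTCF HET whole testis. Their log2 differences from WT ran from −0.23 to 0.34, and the groups overlapped for each of the 8. Of the 10 genes, 2 (Ctcf and Rltpr) did not overlap between the groups, where 7.9% of all genes did not. Acd, whose end overlaps that of Rltpr, was at 15.6, 14.5 and 17.9 CPM in CTCF HET and 15.3, 19.7 and 21.1 in WT, a log2 difference of −0.23 ± 0.22. Fam65a, upstream of Ctcf, was at 4.38, 3.48 and 2.95 CPM against 3.62, 2.45 and 3.29 (0.21 ± 0.27).

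Beyond the 10 genes, 41 other genes start within 500 kb of the Ctcf start. In CTCF HET whole testis 0 of the 32 that could be tested were called by edgeR (2 at an unadjusted p under 0.05, 0 by DESeq2), with a median log2 fold change of 0.13 against 0.011 over all genes. In CM whole testis 8 were higher and 4 lower of 33 at an adjusted p under 0.05 by edgeR, where 25.2% of all genes were called. Lcat, the plasma enzyme that esterifies cholesterol, rose by 3.43 on the log2 scale, and Psmb10, a subunit of the immunoproteasome, by 1.48.

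**Figure D3:**
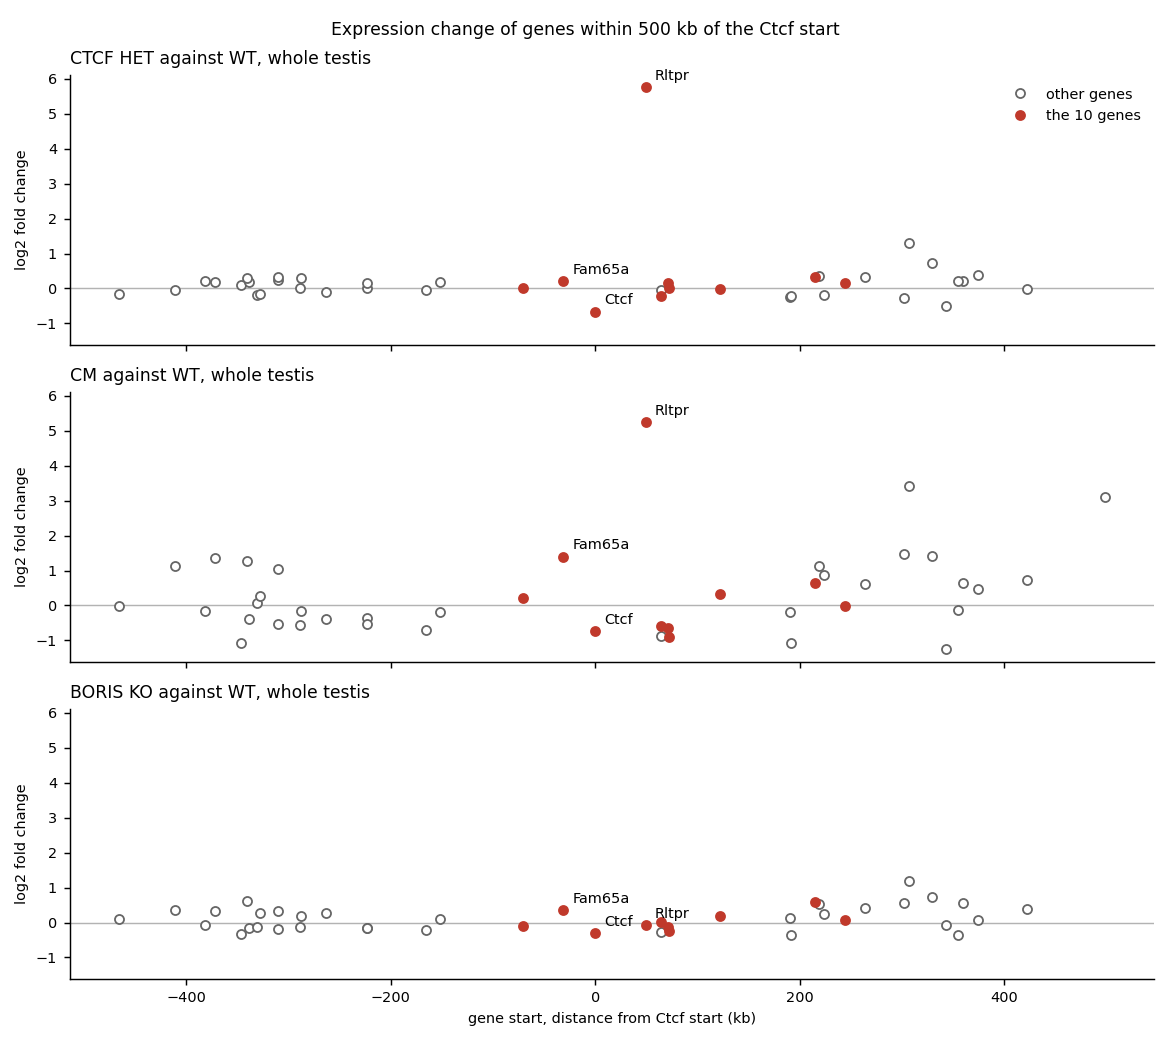
Log2 fold change (vertical axis) of genes by distance of their start from the Ctcf start (horizontal axis, kb) in whole testis, for CTCF HET, CM and BORIS KO against WT. Filled points are the 10 genes and open points other genes. Rltpr stands at 5.77 in CTCF HET and 5.24 in CM, and at −0.08 in BORIS KO.

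In CM whole testis the share of the genes apart from WT was near that of all genes, and cell type markers also differed. In it 6 of the 10 genes did not overlap WT, where 48.5% of all genes did not, and 4 did not overlap BORIS KO, where 27.3% of all genes did not. Fam65a was at 13.1, 4.46 and 7.40 CPM in CM against 3.62, 2.45 and 3.29 in WT, higher in every library (1.40 ± 0.41 on the log2 scale). Cenpt was at 14.3, 9.77 and 9.14 CPM against 8.29, 6.96 and 5.69 (0.65 ± 0.30), and Atp6v0d1 at 38.0, 34.9 and 46.5 against 34.6, 32.2 and 34.3 (0.22 ± 0.22). Acd was lower, at 10.6, 12.6 and 14.8 CPM against 15.3, 19.7 and 21.1 (−0.58 ± 0.26). The summed level of 6 Leydig cell markers was 1739 to 3441 CPM in CM against 356 to 558 in WT, that of 8 Sertoli cell markers 535 to 1074 against 217 to 322, and that of 10 round spermatid markers 3870 to 11584 against 12760 to 20503. In bulk samples a change in the number of cells of a type and in RNA per cell cannot be told apart, and the part of cell makeup in these differences was not tested.

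Of the pathway lists, 2 of 6 had called members in both directions in CM whole testis. By edgeR against WT, where 25.2% of all genes were called, V-ATPase V0 had 4 genes higher and 0 lower of 9, the CARMIL family and capping protein 1 higher and 1 lower of 6, the inner kinetochore 1 and 1 of 15, mRNA decapping 1 and 0 of 8, and the CD28 pathway 0 and 1 of 6. Shelterin had none called of 6 (2 at an unadjusted p under 0.05, 0 by DESeq2). The 4 genes of V-ATPase V0 were Atp6ap1 (1.90 ± 0.27), Atp6ap2 (1.49 ± 0.32), Atp6v0a1 (1.55 ± 0.38) and Tcirg1 (2.39 ± 0.55), accessory proteins and a-subunits of the pump, and the median over the list was 0.78 against 0.0035 over all genes.

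In sorted cells of CTCF HET the counts of genes apart from WT also stood beside high shares of all genes. In RS, 4 of 10 genes did not overlap WT, all higher, where 42.1% of all genes did not overlap. Edc4 was at 39.8, 46.0 and 36.8 CPM against 24.4, 15.8 and 15.2 (1.12 ± 0.18), and E130303B06Rik at 58.1, 71.4 and 56.7 against 47.9, 33.1 and 33.6 (0.68 ± 0.16). In CTCF HET SC, 9 of 10 did not overlap WT, 8 of them lower, where 53.7% of all genes did not (1997 higher and 5336 lower). Edc4 was there at 89.4, 68.5 and 102 CPM against 172 and 189 (−0.94 ± 0.16), and Acd at 12.8, 4.97 and 7.44 against 21.0 and 23.98 (−1.30 ± 0.37). Thus Edc4 was above WT in RS and below it in SC, and Rltpr above it in both. Base composition moved with these values, since the fifth of genes with the highest GC content had a median log2 fold change of 0.44 in RS and −0.61 in SC, and the fifth with the lowest −0.34 and 0.30. With an offset on GC content, chosen after seeing the data, E130303B06Rik had 0.21 and Edc4 0.82 in RS, and Edc4 had −0.46 and Acd −0.75 in SC.

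The libraries labelled CM showed less separation from WT in RS and more in SC. In RS, 2 of 10 genes (Rltpr and Fam65a) did not overlap WT, where 29.2% of all genes did not, and 8 did not overlap BORIS KO, where 51.6% did not. Fam65a was at 5.33, 17.6 and 5.51 CPM in CM RS against 5.22, 4.07 and 3.00 in WT (1.29 ± 0.56, and 0.41 without replicate 2 of CM), and replicate 2 was apart from the other libraries there and in Cenpt (1.07, 6.66 and 0.648 CPM). In SC, 8 of 10 did not overlap WT, where 53.4% of all genes did not, and 10 did not overlap BORIS KO, where 65.9% did not. In SC, Acd was at 12.3, 10.5 and 8.67 CPM in CM, below both WT libraries (−1.10 ± 0.21), and Edc4 at 158, 77.5 and 92.7 (−0.73 ± 0.29). In that comparison the fifth of genes with the highest GC content had a median log2 fold change of −0.44 and the lowest 0.38. With the GC content offset Acd had −0.63 and Edc4 −0.35. The comparisons of CM and of CTCF HET with WT share the WT libraries.

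With 2 Ctcf alleles, loss of Boris left the 10 genes without a called change in whole testis. None was called in BORIS KO against WT (edgeR; 1 at an unadjusted p under 0.05, 0 by DESeq2), where 0.0551% of all genes were called. Rltpr differed by −0.08 ± 0.35 (adjusted p = 0.92) and Ctcf by −0.29 ± 0.16 (adjusted p = 0.379), although Ctcf was lower in all 3 BORIS KO libraries than in WT. Genes of the lists were not called either, in 0 of 6, 6, 6, 14, 8 and 9 genes for CARMIL and capping protein, CD28 pathway, shelterin, inner kinetochore, mRNA decapping and V-ATPase V0 (3, 0, 1, 1, 1 and 4 at an unadjusted p under 0.05, and 0, 0, 0, 1, 0 and 1 by DESeq2).

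In sorted BORIS KO cells most of the 10 genes were higher than in WT, Rltpr among them. In RS 8 were called higher and 0 lower by edgeR at an adjusted p under 0.05, where 55.8% of all genes were called. Rltpr rose from 0.933, 1.11 and 0.582 CPM to 1.96, 1.86 and 1.58 (1.00 ± 0.29 on the log2 scale, adjusted p = 0.0161), without overlap. Edc4 rose from 24.4, 15.8 and 15.2 CPM to 61.7, 55.3 and 46.7 (1.52 ± 0.19, adjusted p = 0.000169). E130303B06Rik rose from 47.9, 33.1 and 33.6 CPM to 117, 107 and 96.8 (1.45 ± 0.15, adjusted p = 6.73e-05). Acd, Gfod2, Atp6v0d1, 4933405L10Rik and Cenpt rose by 0.68 to 1.14. Ctcf (−0.43 ± 0.18, adjusted p = 0.0693) and Fam65a (−0.59 ± 0.23, adjusted p = 0.0541) did not pass the test.

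In SC of BORIS KO most of the genes were also higher than in WT. By edgeR 7 genes were called higher and 1 lower than WT, where 57.2% of all genes were called. Rltpr rose from 1.71 and 1.68 CPM to 2.29, 2.86 and 2.94 (0.67 ± 0.16, adjusted p = 0.00309), and E130303B06Rik from 57.1 and 65.5 to 109, 116 and 106 (0.85 ± 0.07, adjusted p = 2.98e-06). Fam65a fell from 21.4 and 21.4 CPM to 15.6, 14.8 and 16.9 (−0.44 ± 0.08, adjusted p = 0.000575). Against the gain of Rltpr with 1 Ctcf allele in the same cells, these are changes of 2.00-fold in RS and 1.59-fold in SC.

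Base composition moved with these results. In 9 of the 10 genes exon GC content was above the median of all genes, 49.1%, the exception being Ctcf. In BORIS KO against WT RS the fifth of genes with the highest GC content had a median log2 fold change of 1.00 and the fifth with the lowest −0.89, and in SC these were 0.58 and −0.49. When the trend on GC content was taken out by an offset, an alternative chosen after seeing the data, 4 of the 10 genes were called in RS and 3 in SC by edgeR. E130303B06Rik (0.38, adjusted p = 0.00577), Edc4 (0.81, adjusted p = 0.000991) and Cenpt (0.58, adjusted p = 0.0405) remained higher in RS, and Fam65a was then lower (−1.44, adjusted p = 0.000504). Rltpr had 0.21 in RS (adjusted p = 0.59) and 0.20 in SC (adjusted p = 0.33), whereas its log2 change in CTCF HET was 5.92 in RS and 5.55 in SC with the same offset. Acd and 4933405L10Rik changed sign, to −0.15 and −0.17 in RS. With all 4 genotypes in the fit, 5 genes were called in RS and 1 in SC. The shares of all genes called with the offset or with all 4 genotypes are not given here. How far the lower counts follow a drop over all genes was therefore not tested.

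**Figure D4:**
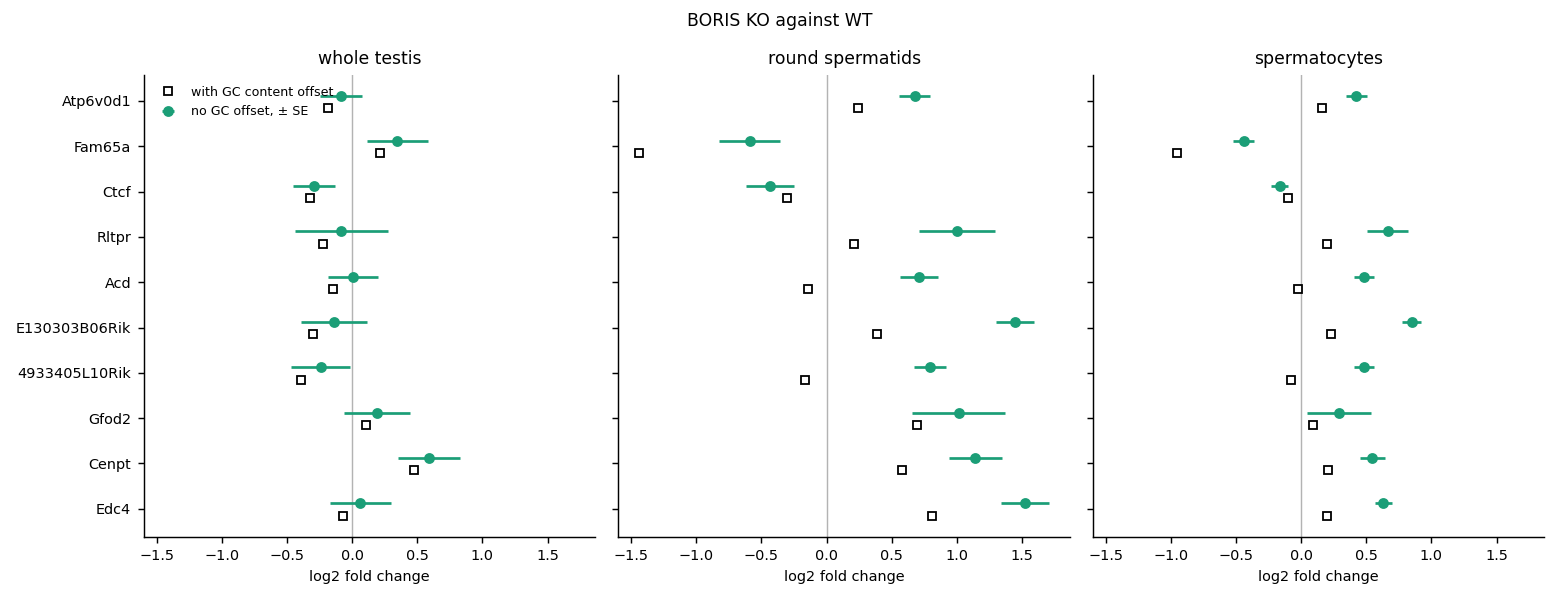
Log2 fold change of each gene in BORIS KO against WT (horizontal axis) in whole testis, round spermatids and spermatocytes. Filled points with bars are estimates ± SE and open squares the estimates with the GC content offset, which moves most genes toward 0 and Fam65a away from it, to −1.44 in round spermatids.

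Called members of the lists in sorted BORIS KO cells stand beside 55.8% of all genes called in RS and 57.2% in SC. In RS, higher and lower calls were 1 and 4 of 6 for the CARMIL family and capping protein, 1 and 2 of 5 for the CD28 pathway, 1 and 1 of 6 for shelterin, 1 and 7 of 15 for the inner kinetochore, 1 and 3 of 8 for mRNA decapping and 3 and 1 of 9 for V-ATPase V0. Thus Cenpt rose while most called genes of the inner kinetochore fell, such as Cenpk (−2.11 ± 0.20, adjusted p = 5.15e-05) and Cenpp (−1.80 ± 0.13, adjusted p = 1.09e-05). Acd rose as did Tinf2 (0.79 ± 0.15, adjusted p = 0.0016), which binds the ACD protein in shelterin, while Terf1, which binds telomere DNA, fell (−1.75 ± 0.16, adjusted p = 3.95e-05). With the GC content offset, Acd had −0.15 (edgeR, adjusted p = 0.271) and Cenpt 0.58. Values with that offset are not given here for genes of the lists, so these contrasts hold only without it. In SC, higher and lower calls were 1 and 1 of 6, 1 and 1 of 5, 1 and 3 of 6, 3 and 7 of 14, 2 and 3 of 8 and 4 and 0 of 7 in the same order. Of other genes within 500 kb, 17 were higher and 3 lower of 30 in RS, where 4162 of all 15513 genes were called higher and 4496 lower.

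With 1 Ctcf allele in both groups, CM was set against CTCF HET. By edgeR 0 of the 10 genes were called in whole testis (2 at an unadjusted p under 0.05, and 2, Fam65a and E130303B06Rik, by DESeq2), where 15.5% of all genes were called. Fam65a was higher in every CM library (1.18 ± 0.41, adjusted p = 0.0777), and E130303B06Rik lower (44.9, 79.5 and 71.4 against 93.2, 111 and 139 CPM, −0.83 ± 0.30, adjusted p = 0.0851). Rltpr differed by −0.53 ± 0.31 (adjusted p = 0.249). In all 18 pairs of same-numbered whole testis libraries, deviations from the group means correlated above 0.1. A pairing by number was inferred from this, since the labels give only the numbers. The pairs share libraries, and values for differently numbered libraries are not given here. With the replicate block edgeR called 4 genes: Fam65a (1.09, adjusted p = 0.00758), E130303B06Rik (−0.85, adjusted p = 0.00332), 4933405L10Rik (−1.10, adjusted p = 0.0358) and Rltpr (−0.55, adjusted p = 0.029). The same 4 were called when the GC content offset was added to the block. The shares of all genes called in these fits are not given here, and the 15.5% above belongs to the fit without the block. Rltpr was thus called lower in CM whole testis with the block and not without it, at 41.4 CPM or more in each library.

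In sorted cells this comparison called none of the 10 genes. In RS it was 0 of 10 by edgeR (5 at an unadjusted p under 0.05, and 2, Ctcf and E130303B06Rik, by DESeq2), where 0.0% of all genes were called (3332 at an unadjusted p under 0.05, 1576 by DESeq2). Rltpr was lower in all 3 CM RS libraries than in CTCF HET (−0.77 ± 0.28, adjusted p = 0.204). Without replicate 1 of CM, the library with Ctcf at 171 CPM, 5 genes were called lower: Rltpr (−1.13, adjusted p = 0.0345), Acd (−0.86), E130303B06Rik (−1.27), 4933405L10Rik (−0.72) and Edc4 (−0.90). The share of all genes called in that fit is not given here. In the full fit the median log2 fold change was −0.44 in the fifth of genes with the highest GC content and 0.37 in the lowest. With the GC content offset on all libraries, Acd had −0.10, E130303B06Rik −0.41 and 4933405L10Rik 0.0054. Values of Rltpr and Edc4 with it are not given here. In SC 0 of the 9 genes past the filter were called (0 at an unadjusted p under 0.05, 0 by DESeq2), where 0.318% of all genes were called, and Rltpr differed by 0.13 ± 0.22 (adjusted p = 0.913). Gfod2 was at 0 to 0.446 CPM in both groups and did not pass the filter.

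Whether loss of Boris acted differently on the 8 neighbours with 1 and with 2 Ctcf alleles was tested as the difference of the 2 effects, a comparison added after seeing the data. By edgeR 5 of the 8 differed in RS, where 37.4% of all genes did: Edc4 by −2.21 ± 0.33 (adjusted p = 0.000768), E130303B06Rik by −2.45 ± 0.32 (adjusted p = 0.000475), 4933405L10Rik by −1.35 ± 0.25 (adjusted p = 0.00202), Acd by −1.31 ± 0.32 (adjusted p = 0.00811) and Fam65a by 1.64 ± 0.60 (adjusted p = 0.0481), the last at 0.85 without replicate 2 of CM. With the GC content offset 3 differed, and Acd and 4933405L10Rik changed sign to 0.071 and 0.20. The share of all genes that differed with the offset is not given here. None differed in whole testis (0 of 8 at an unadjusted p under 0.05), where 0.0% of all genes did (1713 at an unadjusted p under 0.05), or in SC (3 of 8 at an unadjusted p under 0.05), where 7.44% did. DESeq2 was not run for this contrast.

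Between stages, several of the genes had their own course. In WT, edgeR called 1 gene higher and 5 lower in RS than in SC, where 70.0% of all genes were called. Edc4 was at 24.4, 15.8 and 15.2 CPM in RS and 172 and 189 in SC (−3.20 ± 0.20, adjusted p = 7.28e-06), Cenpt at 1.65, 1.23 and 1.35 against 10.6 and 11.8 (−2.88 ± 0.19, adjusted p = 9.21e-06) and Fam65a at 5.22, 4.07 and 3.00 against 21.4 and 21.4 (−2.28 ± 0.22, adjusted p = 6.59e-05). 4933405L10Rik was the gene higher in RS, at 50.8, 40.0 and 39.7 against 25.0 and 27.5 CPM (0.82 ± 0.14, adjusted p = 0.00152). Ctcf (0.12 ± 0.22, adjusted p = 0.646) and Rltpr (−0.86 ± 0.33, adjusted p = 0.0522) did not pass the test.

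In BORIS KO, 2 genes were called higher and 5 lower in RS than in SC, where 83.3% of all genes were called. Edc4 (−2.34 ± 0.08), Cenpt (−2.31 ± 0.11), Fam65a (−2.47 ± 0.13) and 4933405L10Rik (1.099 ± 0.07) kept their directions, and Rltpr was lower in RS (−0.56 ± 0.16, adjusted p = 0.0087). Of the lists in WT, where 70.0% of all genes were called, shelterin had 0 higher and 5 lower of 6, mRNA decapping 3 and 5 of 8, the inner kinetochore 6 and 5 of 15, V-ATPase V0 4 and 4 of 10, the CARMIL family and capping protein 2 and 1 of 6 and the CD28 pathway 1 and 3 of 5. Acd, a shelterin gene, differed by −0.30 ± 0.18 (adjusted p = 0.171) in WT.

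Per exon length in WT whole testis, E130303B06Rik was the most abundant of the 10 genes (79.8 ± 20.8 RPKM, SD, n = 3), above every other gene in all 3 libraries. 4933405L10Rik (43.2 ± 7.25) and Edc4 (38.8 ± 9.36) followed, with ranges that overlapped each other. Atp6v0d1 (18.8 ± 0.73), Acd (12.2 ± 1.96), Ctcf (8.79 ± 0.44) and Cenpt (3.95 ± 0.73) came next, each without overlap with its neighbours in the order. Gfod2 (0.793 ± 0.143) and Fam65a (0.760 ± 0.147) overlapped, and Rltpr was lowest (0.266 ± 0.052).

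The genes whose log2 CPM over the 12 whole testis libraries was most like Rltpr, among 17184 others, were Rnf222 (Pearson r = 0.92, Spearman correlation 0.91), Pkn3 (0.86 and 0.85) and Engase (0.85 and 0.80), and the gene most opposed was Morc1 (−0.93 and −0.76), none of them on chromosome 8. Their ranges were far narrower. Pkn3 was at 1.99 to 3.76 CPM in WT and 6.10 to 12.5 in CTCF HET, and Morc1, a gene of male germ cells, at 3.82 to 5.25 against 1.02 to 1.65. Most like Ctcf were Zcchc11 (0.88 and 0.85), Rev3l (0.88 and 0.87) and Runx1t1 (0.86 and 0.85), and most opposed was Htra2 (−0.91 and −0.85). The likeness is a description, since the libraries share genotype and cell makeup.

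CTCF peaks were listed around Rltpr in WT testis and at fewer places in CM. Of 11 WT CTCF peaks at the 10 genes, 4 were overlapped by a CM peak, while over the whole list 56.1% of 34625 peaks were, from 11.9% in the lowest to 95.2% in the highest of 4 height classes. The peak upstream of Rltpr had its summit 358 bp before the Rltpr start in WT, with a height of 2726 (the 91.3rd percentile of its list). In CM a peak with its summit 363 bp before the start had a height of 191, the 25.4th percentile of the CM list. The peaks past the end of Fam65a (2767 in WT, 325 in CM), at the Atp6v0d1 promoter (1999 and 155) and in the body of Gfod2 (1123 and 395) were the others present in both. Their percentiles in the WT and CM lists were 91.6 and 52.0, 84.1 and 16.8, and 70.0 and 63.4 in this order. A lower place in the CM list was thus not particular to the peak upstream of Rltpr. Heights are not compared between lists, since their normalization is not stated.

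The 7 WT peaks without a CM peak were at the Fam65a promoter (height 1139), the Ctcf promoter (487), 2 in Rltpr, holding the exon match (1193) and the intron match (326) shown above, 2 near the start of Acd (197 and 116) and the body of Atp6v0d1 (366). Of these, the peaks at the promoters of Fam65a and Ctcf were overlapped by BORIS peaks in WT, and the rest, with the 2 in Rltpr, were not. Among the peaks present in both genotypes, those at the Atp6v0d1 promoter, past the end of Fam65a and in Gfod2 were overlapped by BORIS peaks. The one upstream of Rltpr was not. BORIS had no peak in the stretch between Ctcf and Rltpr or within Rltpr. Of the 10 genes, 5 had a WT CTCF peak within 1 kb of the start (23.0% of all annotated genes), 2 in CM (6.89%), and 3 had a BORIS peak (12.1%).

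Marks of active promoters stood at most of the genes and not at Rltpr. A Pol2 peak lay within 1 kb of the start of 7 genes in WT (37.6% of all genes) and 9 in CM (44.7%), and an H3K4me3 peak at 8 in WT (49.5%) and 9 in CM (54.5%). Rltpr was the gene without either mark in CM, although it was at 41.4 to 77.8 CPM in RNA of CM whole testis. No Pol2 or H3K4me3 peak overlapped any part of Rltpr, and the nearest to its start were 14238 bp (Pol2) and 14098 bp (H3K4me3) away in WT and 14104 and 13485 bp in CM. Fam65a had neither mark at its start in WT and both in CM, and the CM Pol2 peak there had a score of 115. Gfod2 had a Pol2 peak at its start (score 57.2) in the CM list and not in the WT list. Each list stands alone, so that the spread between ChIP replicates is not known, and a peak list does not show signal under its threshold.

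**Figure D5:**
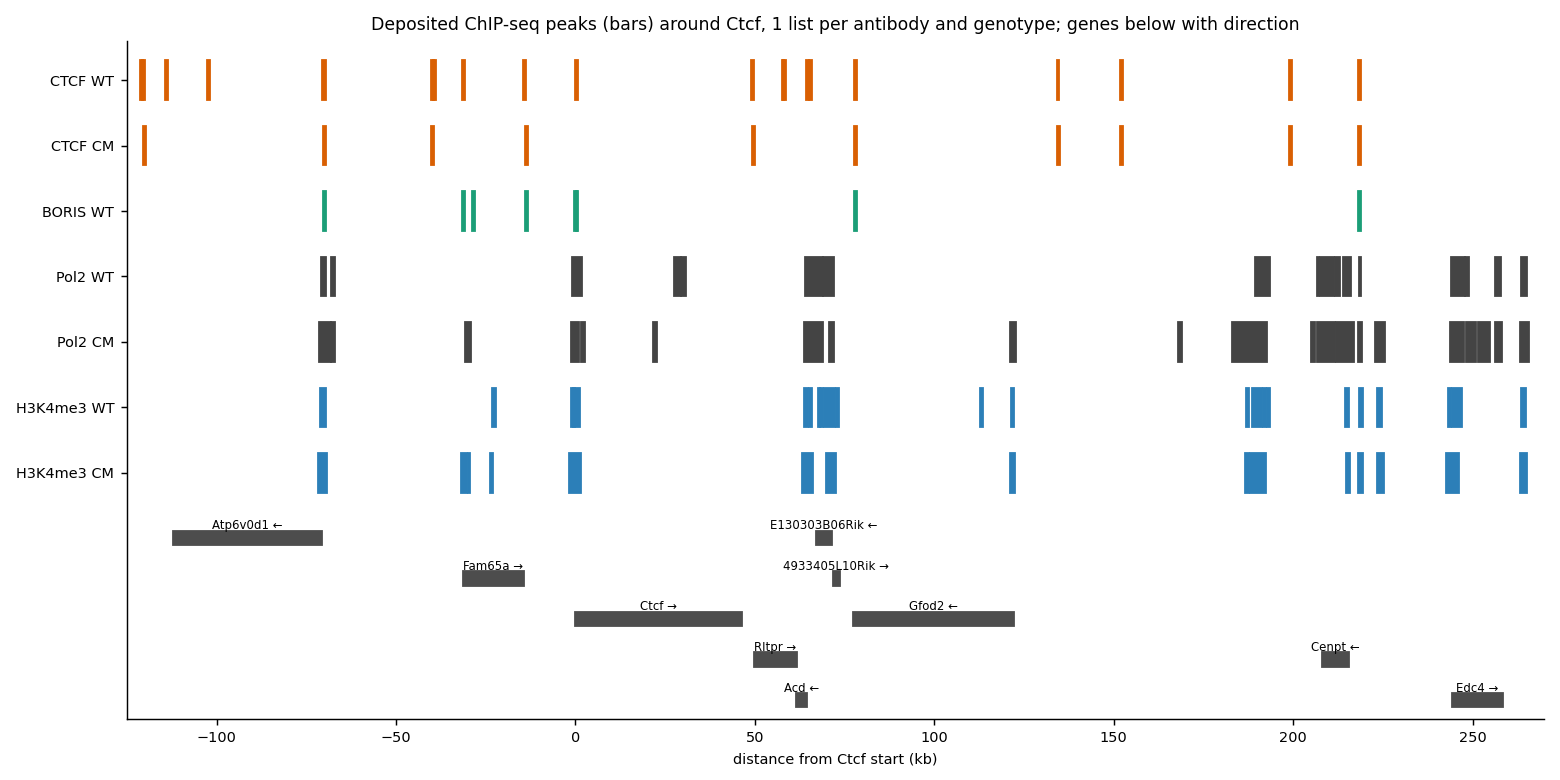
Deposited peaks (bars, narrow ones drawn wider to be visible) of CTCF, BORIS, Pol2 and H3K4me3 in WT and CM whole testis by distance from the Ctcf start (kb), with the 10 genes and their direction below. Rltpr, starting at 49.7 kb, has CTCF peaks and no Pol2 or H3K4me3 peak, and Fam65a has Pol2 and H3K4me3 at its start in CM and not in WT.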

How the data were processed

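RNA-seq was measured in 35 libraries (12 whole testis, 23 sorted), each listing 23284 genes, of which 23259 symbols were shared. The values are read counts per gene as deposited by the authors, who aligned whole testis reads (rRNA-depleted RNA, Ion Proton) with TopHat2 and Bowtie2 and RS and SC reads (poly(A) RNA) with STAR, to mm9. The submitters' processing notes for whole testis also list Cufflinks 2.0.0 and DESeq2, without their role. Which program made the counts, with which annotation and strand setting, is not given in the sources used here. For CTCF and BORIS peaks the authors deposited heights (signal whose normalization is not stated), and for Pol2 and H3K4me3 peaks the authors deposited MACS scores, 1 list per antibody and genotype. CTCF ChIP-seq of spermatocytes was not analysed here.

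Groups follow the labels, and CM is labelled DKO there. Counts were filtered with filterByExpr (minimum count 10, minimum total 15), scaled by TMM and fitted per comparison with the robust quasi-likelihood test of edgeR 4.0.16 (R 4.3.3, prior count 2), adjusted by Benjamini-Hochberg over all genes and called at 0.05. The script was tested on simulated data. DESeq2 1.42.0, other scalings and filters, all 4 genotypes in one fit, leaving out each library and a replicate block were alternatives. A loess offset on GC content (span 0.5), alone or with the block, and the difference between the Boris effects were added after seeing the data. Same-numbered libraries correlated above 0.1 in 18 of 18 pairs of whole testis (0.12 to 0.63), 4 of 18 of RS and 1 of 15 of SC. A pairing by number was therefore taken for whole testis only, inferred from these data and not named by the labels. The mm9 annotation matched 21872 symbols (94.0%), and RPKM used its exon lengths. Promoter peaks lie within 1 kb of a start and the positional list within 500 kb.

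The members, the gene lists (CARMIL family and capping protein, CD28 pathway, shelterin, inner kinetochore, mRNA decapping, V-ATPase V0) and the cell type markers were chosen with earlier results of these data known. Named genes are the 10 members, and of other genes called list members, the genes of the pattern search and examples chosen after their values were seen. Depth per library limits low genes, and errors are SE of the fit or SD over libraries.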

Additional observations from a re-analysis of the deposited data

Results flagged for a closer look

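Between mice with 1 and with 2 Ctcf alleles, the effect of losing Boris in RS differed for 5 of the 8 neighbours by an edgeR test of the difference itself, where 37.4% of all genes differed. On the log2 scale the effect with 1 allele (CM against CTCF HET) minus that with 2 (BORIS KO against WT) was −2.45 for E130303B06Rik, −2.21 for Edc4, −1.35 for 4933405L10Rik, −1.31 for Acd and 1.64 for Fam65a. With the GC content offset Acd (0.071) and 4933405L10Rik (0.20) changed sign and were no longer called, while E130303B06Rik had −0.77, Edc4 −1.03 and Fam65a 3.11. Fam65a lost its call when any of the 9 WT, CTCF HET or BORIS KO libraries was left out (1.41 to 1.80), and had 0.85, still called, without replicate 2 of CM. Ctcf was at 171 CPM in replicate 1 of CM RS.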

How the results depend on the processing

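Across single genes, leaving out a library left 1089 values as they were, moved 19, and made 20 pass and 22 miss the threshold, and other settings gave 945, 36, 25 and 22, with 6 that changed sign. The 6 arose with the GC content offset: in BORIS KO against WT, Acd (−0.15) and 4933405L10Rik (−0.17) in RS and Acd (−0.022) and 4933405L10Rik (−0.076) in SC, and for the difference between the Boris effects in RS, Acd (0.071) and 4933405L10Rik (0.20). With that offset the log2 change of Rltpr was 5.92 (CTCF HET RS) and 5.55 (CTCF HET SC) against WT, 5.57 (CM SC) against WT, and 5.32 (RS) and 5.36 (SC) for CM against BORIS KO, and that of Ctcf in CM whole testis −0.81, also with the replicate block. Counts of the 10 genes called in CM against CTCF HET whole testis were 2 by DESeq2, 2 with all genotypes in one fit, 4 with the replicate block and 4 with block and offset, and 0 to 1 with a library left out. In RS they were 2 by DESeq2, 2 in one fit and 0 to 5 with a library left out. In BORIS KO against WT they were 5 (RS) and 1 (SC) in one fit and 4 and 3 with the offset. The difference between the Boris effects was called for 3 genes in RS with the offset, and in SC for 1 with RLE size factors and for 0 to 3 with a library left out. Shares of all genes called under the alternatives other than DESeq2 are not given here, so these counts have no background beside them. With a library left out, Ctcf in CM ranged from −0.77 to −0.64 in whole testis, 0.34 to 1.64 in RS and 0.033 to 0.85 in SC against WT, and from 0.63 to 2.00 in RS and 0.076 to 0.94 in SC against BORIS KO, and Rltpr in CM against BORIS KO from 4.08 to 4.67 in RS and 4.16 to 4.54 in SC. In a narrower positional window, other genes called were 3 (CM whole testis) and 6 (BORIS KO RS). With the upper 50% of peaks, promoter CTCF peaks were at 3 genes in WT and 0 in CM, and 2 of 6 WT peaks were kept. In RS and SC libraries share only a number, and the block called 10 genes in BORIS KO against WT RS. The cause of these differences was not tested. Low depth limits Gfod2, Ctcfl and, with 2 Ctcf alleles, Rltpr.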

Other observations

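Markers of other cells in whole testis were also summed. From WT to CM the ranges were 52.7 to 67.2 and 116 to 401 CPM for spermatogonia, 640 to 650 and 442 to 627 CPM for spermatocytes, 8.27 to 12.3 and 10.9 to 29.9 CPM for peritubular cells, and 464 to 624 and 307 to 449 CPM for macrophages.
In CM against CTCF HET whole testis, 3 of 9 genes of V-ATPase V0 were called higher and 0 lower by edgeR, where 15.5% of all genes were called (1756 higher and 806 lower): Atp6ap1 (1.56 ± 0.29, adjusted p = 0.0216), Atp6ap2 (1.87 ± 0.33, adjusted p = 0.0216) and Atp6v0a1 (1.36 ± 0.39, adjusted p = 0.0454), while Atp6v0d1 beside Ctcf differed by 0.20 ± 0.24 (adjusted p = 0.561).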
